A study of Cervus nippon with 12 samples.

Results

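miR-21 was studied through its 2 mature arms, miR-21-5p (bta-miR-21-5p) and miR-21-3p (bta-miR-21-3p), taken by name from the 545 miRNAs listed for each of 12 small RNA libraries. The libraries came from cultured wild-type cells of the growing antler tips of male sika deer (3 years old). Of the 545 listed names, 475 are cattle (bta-) miRNA names and 70 are predicted miRNAs without such a name. Both kinds count in totals, ranks and called shares. Reserve mesenchyme cells (RMCs), the mesenchymal stem cells of the antler tip, were sequenced before induction (CP_0) and after 7 days (CP_7) or 14 days (CP_14) in chondrogenic culture. The study describes chondrogenic induction as pellet culture, so that CP_7 and CP_14 may differ from CP_0 in culture format as well as in medium and time. Chondrocytes (CC) isolated from antler cartilage formed the fourth group. Each of the 4 groups had 3 libraries. Species and genotype were shared by all groups, and the chondrocytes carry no induction label, so that CC differs from the CP groups in cell source as well as in treatment. The study gives the replicates as biological, but the labels do not tie a library to an animal, so that p-values measure the spread between these libraries.

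A miRNA hairpin is cut into a duplex of short strands, one from each arm. One strand, the guide, is loaded into an Argonaute protein and directs it to target mRNAs through its seed bases, while the other, the passenger, is mostly degraded. For miR-21 the 5p arm is the usual guide, it is among the most abundant miRNAs of many cultured mesenchymal cells, and its known targets include the tumour suppressor PDCD4. The relative abundance of the arms reflects how strands are selected and kept, and it can be read within a library, without any scaling between libraries.

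Levels are given as RPM, the reads of a miRNA for every 1000000 reads that a library had on listed miRNAs. Some names had the same or nearly the same reads in every library, such as miR-26a and miR-26c or miR-22-3p and miR-3600. Totals, shares and numbers of miRNAs may therefore hold the same reads under 2 names. The libraries held 539455 to 10256572 reads, fewest in CP_7 and most in CC, and 3 reads, the limit that a count of 0 allows, were worth 5.56 RPM in the shallowest and 0.292 RPM in the deepest. The cartilage miRNAs miR-140 and miR-455 were detected in every library (9043 to 11415 RPM, sum of 3 names). In CP_0 replicate 3 the erythroid list (miR-451, miR-486 and miR-144) summed to 4192 RPM, against 11.8 and 12.2 RPM in the other CP_0 libraries, 22.1 to 145.3 RPM in CP_7, 3486 to 5167 RPM in CP_14 and 1387 to 1460 RPM in CC, with miR-144 at 0 to 2 reads everywhere. In reads, CP_0 replicate 3, CP_14 and CC were much alike in spite of their unlike depths. miR-451 had 6933 reads in CP_0 replicate 3, 6431, 6039 and 6109 in CP_14 and 6619, 6293 and 6119 in CC. miR-486 had 8312, then 7992, 7615 and 7363, then 8345, 7885 and 7706. The cause was not tested. CP_7 replicate 3, the shallowest library, held 3083 RPM of the endothelial miRNA miR-126 (both arms), against 28.4 to 322.7 RPM elsewhere. CP_7 replicate 1 stood apart in other miRNAs. It had 709 reads of miR-370, against 3 and 13 in CP_7 replicates 2 and 3, and 1430 of miR-9-5p, against 111 and 76. The skeletal muscle list (5 names of miR-1, miR-133 and miR-206) summed to 4540 to 6637 RPM in CP_7 and to 537.2 to 1757 RPM elsewhere, and the leukocyte list (4 names) to at most 35.4 RPM in any library. The part of these miRNAs in the results for miR-21 was not tested, beyond the values without CP_0 replicate 3 and CP_7 replicate 3 given below. Those values still hold CP_7 replicate 1.

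miR-21-5p was the most abundant miRNA in all 12 libraries, and its share of the reads was lowest at day 7 and highest in the chondrocytes. It took 59.8%, 61.7% and 59.5% of the reads in the CP_0 libraries. In CP_7 its share was 24.3%, 23.9% and 21.4%. In CP_14 it was 45.0%, 45.7% and 53.9%. The ranges of these groups lay apart, and those of the chondrocytes, at 76.9%, 75.7% and 72.9%, lay above them all. The widest 95% Wilson interval of a single share ran from 21.2% to 21.5%, in CP_7 replicate 3, so the spread between libraries was much larger than the counting error. miR-21-5p outnumbered all other miRNAs together in every CP_0 and CC library, in CP_14 replicate 3 and in no other library. An exact permutation test of the log2 odds of the share over all 15400 partitions of the libraries into 4 groups of 3 gave p = 6.49e-05, the smallest value these partitions allow. Groups that do not overlap were common in these data. On the scale used for testing they were found for 67.9% of the miRNAs in CP_7 against CP_0, 62.2% in CP_14 against CP_7, 56.4% in CP_14 against CP_0, 78.6% in CC against CP_14, 63.1% in CC against CP_0 and 70.7% in CC against CP_7.

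**Figure D1:**
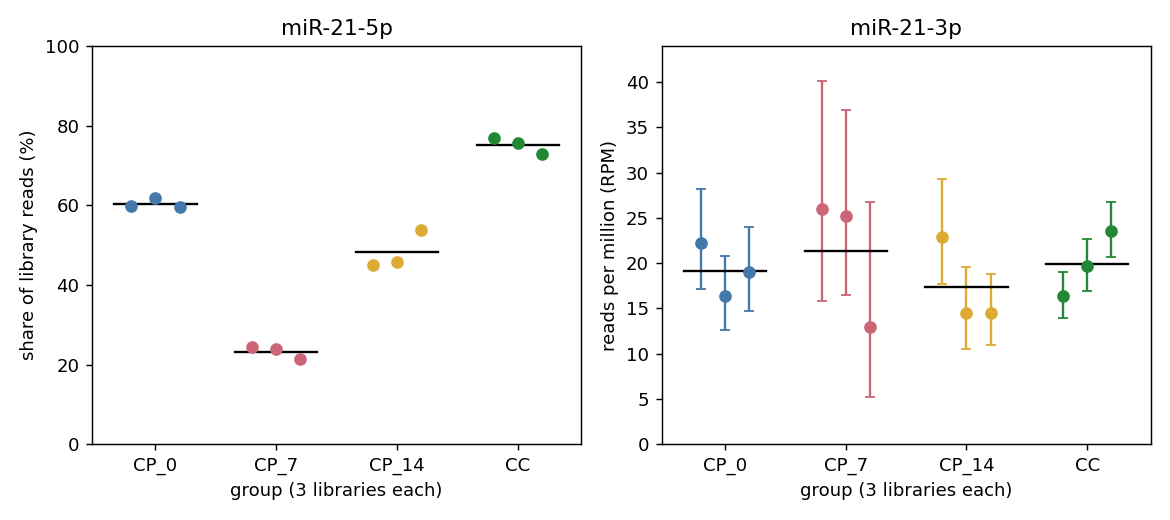
Left, share of library reads taken by miR-21-5p (%); right, miR-21-3p in RPM (reads per 1000000 miRNA reads), with 1 point per library, 95% intervals of counting error (Wilson for shares, exact Poisson for RPM; on the left they are narrower than the points) and group means as black lines. The 5p shares of the 4 groups do not overlap, while the 3p values of all groups lie between 13.0 and 26.0 RPM.

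The miRNA in second place was not the same in all groups. In CP_0, CP_14 and CC it was miR-143, a miRNA of smooth muscle and mesenchymal cells, and miR-21-5p exceeded it by 4.23 ± 0.42-fold, 2.00 ± 0.57-fold and 17.8 ± 3.6-fold (SD, n = 3). In CP_7 it was let-7i, of the let-7 family that accumulates as cells differentiate, and miR-21-5p exceeded it by only 1.48 ± 0.04-fold. The lead of miR-21-5p was thus narrowest at day 7. The share of let-7i was 15.7% ± 1.3 in CP_7 against 5.18% ± 0.27 in CP_0, and that of miR-148a was 13.8% ± 0.7 against 1.76% ± 0.11. Neither share stayed at its day 7 height in the later groups. That of let-7i was 5.08% in CP_14 and 3.52% in CC, and that of miR-148a was 3.53% and 3.12%. miR-143 stood at 9.36% ± 1.60 in CP_7 and at 14.3% ± 1.4 in CP_0.

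**Figure D2:**
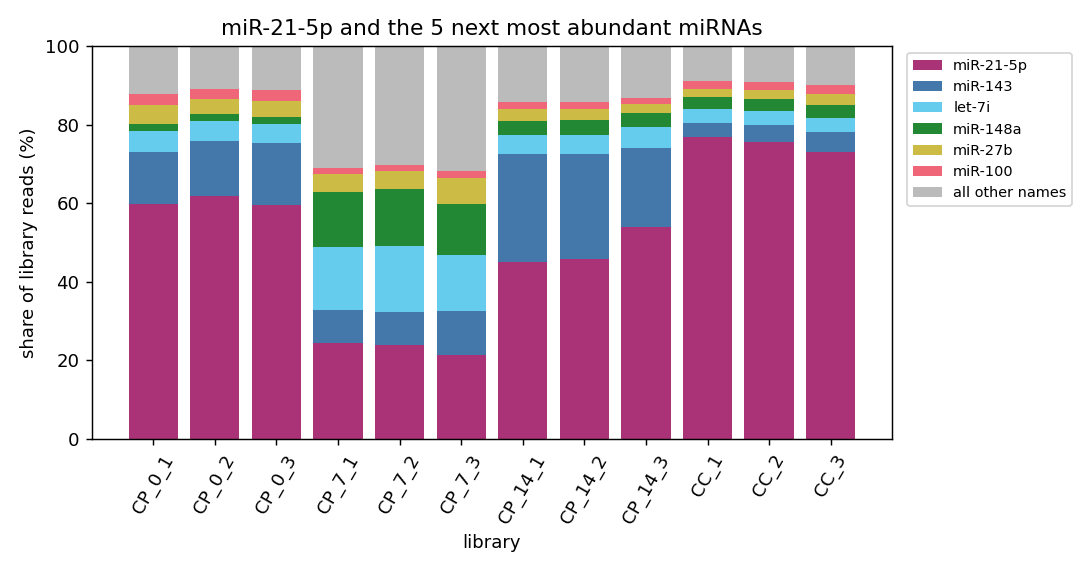
Share of library reads (%) of miR-21-5p and of the 5 next most abundant miRNAs by mean RPM, with all other names in grey, 1 bar per library. miR-21-5p is the largest named block in every bar, and it is smallest in the CP_7 bars, where let-7i and miR-148a are widest.

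miR-21-3p was a rare miRNA in every group, and on the deposited scale its level varied little beside that of the 5p arm. Its reads numbered 66, 67 and 69 in CP_0, 20, 26 and 7 in CP_7, 64, 44 and 56 in CP_14 and 168, 191 and 235 in CC. In RPM the CP_0 libraries stood at 22.2, 16.4 and 19.0, those of CP_7 at 26.0, 25.2 and 13.0, those of CP_14 at 22.9, 14.5 and 14.5 and those of CC at 16.4, 19.7 and 23.6. The 4 groups overlapped throughout. Their means were 19.2 ± 2.9 RPM (SD, n = 3) for CP_0, 21.4 ± 7.3 for CP_7, 17.3 ± 4.9 for CP_14 and 19.9 ± 3.6 for CC, and the exact permutation test over the 15400 partitions gave p = 0.82. This does not show that the groups were equal, since the 7 reads of CP_7 replicate 3 place its value anywhere between 5.22 and 26.7 RPM (95% exact Poisson interval, counting error only). By abundance the 3p arm ranked between 139 and 208 among the 545 names. Its place was highest in the CC libraries (139 to 144) and lowest in CP_7 (164 to 208).

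The ratio of the arms, 5p reads for each 3p read within a library, needs no scaling between libraries. It was lower at day 7 than in any other group, with a mean log2 ratio of 13.47 against 14.95 at day 0. In the CP_0 libraries there were 26923, 37738 and 31345 reads of the 5p arm for each read of the 3p arm. In CP_7 there were 9370, 9505 and 16457, all below the lowest CP_0 library. By day 14 the ratio was 19623, 31422 and 37202, above every CP_7 library and overlapping CP_0. Among the chondrocytes it was 46972, 38484 and 30947, which overlapped both CP_14 and CP_0 but not CP_7. With the reads of a group pooled, the ratio was 10372 in CP_7 (95% exact interval 7929 to 13847), below the 32020 (27897 to 36939) of CP_0, the 28791 (24707 to 33760) of CP_14 and the 37903 (34974 to 41146) of CC. These intervals cover counting error only, and in CP_14 and CC the 3p reads varied between libraries by more than counting error (chi-square per degree of freedom 6.78 and 8.75, against 1.92 in CP_0 and 0.96 in CP_7). Adapters join some small RNAs more readily than others, so that the ratio is one of reads and not of molecules. Whether deer reads match the cattle sequences of both arms equally well was not checked, which limits what the height of the ratio can mean.

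**Figure D3:**
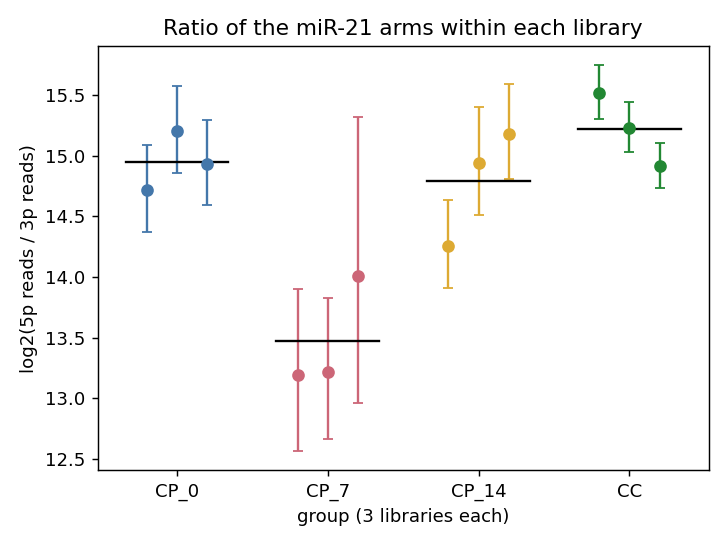
Log2 of miR-21-5p reads over miR-21-3p reads in each library, with 95% exact intervals of counting error and group means as black lines. The 3 CP_7 libraries sit lowest, with a group mean of 13.47, below all 9 other libraries, whose group means are 14.79 to 15.22.

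Over the 4 groups the exact permutation test of the log2 arm ratio gave p = 0.0062. Between day 0 and day 7 the log2 ratio of 5p to 3p fell by 1.48 ± 0.32 (SE, limma adjusted p = 4.7e-05), which is a ratio 2.79-fold lower. Between day 7 and day 14 it rose by 1.31 ± 0.32 (SE, limma adjusted p = 0.0097), or 2.48-fold. The first of these p-values rests on a spread shared over all 16 miRNAs tested, whereas a permutation of 3 libraries against 3 cannot go below p = 0.1 and gave exactly that for both changes. Neither change lost the call when a library was left out (-1.73 to -1.35 and 1.12 to 1.57), and without CP_0 replicate 3 and CP_7 replicate 3, a pair chosen after the data were seen, the first was -1.74 (limma adjusted p = 0.00046). The net change over 14 days was -0.17 (95% interval -0.66 to 0.32, limma adjusted p = 0.59), and CC differed from CP_0 by 0.27 (95% interval -0.11 to 0.66, limma adjusted p = 0.27). Both of these intervals also rest on a spread shared over all miRNAs tested in their comparison. CC against CP_14 stood at 0.44 (95% interval -0.07 to 0.96, limma adjusted p = 0.11). That last difference passed the threshold without CP_14 replicate 2 (0.51), without CP_14 replicate 3 (0.63) or without CC replicate 3 (0.59), and was 0.19 without CP_14 replicate 1, the library with the lowest ratio of its group.

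A changed arm ratio was common in these libraries, so that the call by itself does not set miR-21 apart. Of the 36 miRNAs with both a -5p and a -3p name, 16 had enough reads on both arms to be tested between CP_7 and CP_0, and 12 of them (75%) were called, 7 (43.8%) with a lower and 5 (31.2%) with a higher ratio of 5p to 3p. The groups did not overlap for 87.5% of the 16. The change of miR-21 was the 5th largest, behind miR-27a (-3.52), miR-331 (2.15) and miR-22 (2.05) among others. Between CP_14 and CP_7, 11 of 16 (68.8%) were called, 31.2% of the 16 with a higher ratio, as miR-21, and 37.5% with a lower one, and the groups did not overlap for 75%. Here miR-21 was 7th, and miR-23b (-2.72), miR-7857 (2.38) and miR-22 (-1.98) led. The 5p arm of miR-23b had only 3, 5 and 3 reads in CP_14, so that its changes involving CP_14 rest on few reads. Few reads also underlie the change of miR-331, whose 3p arm had 12, 13 and 7 in CP_7. In the remaining comparisons miR-21 was not called. In CP_14 against CP_0, 31.6% of 19 miRNAs were called, 21.1% with a lower and 10.5% with a higher ratio, with 47.4% not overlapping, and the largest change was that of miR-27a (-1.72), followed by miR-23b (-1.36) and miR-199a (-1.23). In CC against CP_14 the ratio was called for 68.4% of 19, lower for 26.3% and higher for 42.1%, with 73.7% not overlapping, led by miR-199a (2.84), miR-27a (2.75) and miR-6119 (1.68). In CC against CP_0 the called share was 16.7% of 18, all of them higher (0 lower), with 50% not overlapping, led by miR-199a (1.61), miR-6119 (1.43) and miR-27a (1.03). The 3p arm of miR-6119 had only 6, 14 and 21 reads in CP_0 and 6, 20 and 9 in CP_14. Between CC and CP_7, where miR-21 did not overlap, 68.4% of 19 miRNAs did not.

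Among the 19 miRNAs whose arms both passed the filter over the 12 libraries, the mean log2 ratio of miR-21, 14.53, was the farthest from 0 in either direction. The lowest value of miR-21 in any library (13.14) lay above the highest of the nearest of these 19, let-7a (8.74). The filter removes miRNAs whose rarer arm has few reads, and among those was miR-99a, with 0 to 17 reads on its rarer arm, a mean of 10.59 and a highest value of 13.71, above the lowest of miR-21. The means of the nearest of the 19 were 7.95 for let-7a, 4.78 for miR-9 and 4.69 for miR-17, and the median distance from 0 over the 18 others was 3.60. The range of the miR-21 ratio over the libraries, 2.29 on the log2 scale, was in 12th place of 19, against a median range of 2.90 for the others. Height and range of the ratio are given as descriptions and were not tested.

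**Figure D4:**
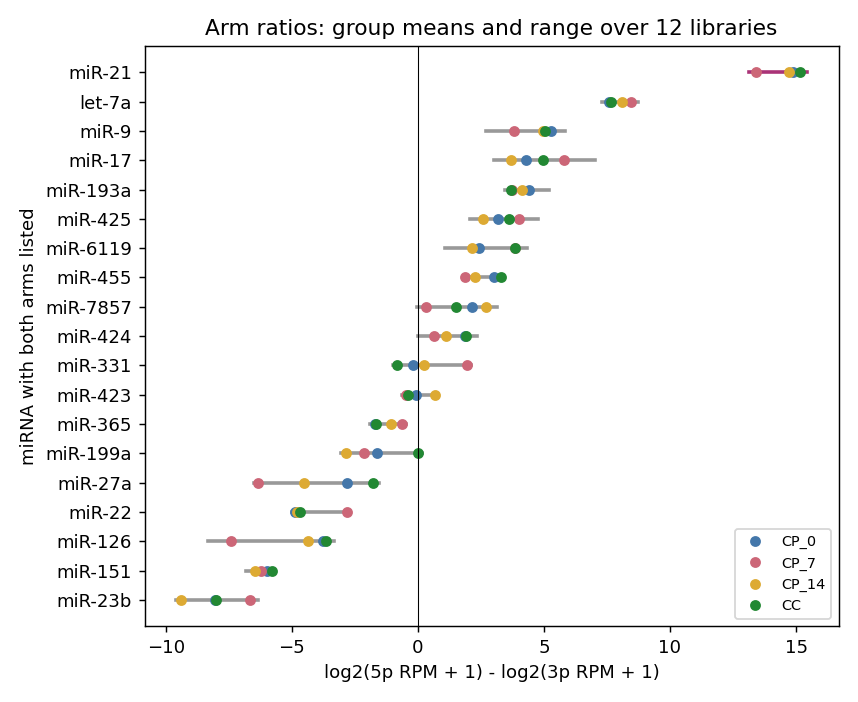
Log2 difference between 5p and 3p RPM (each plus 1) for the 19 miRNAs with both arms above the filter, as group means (coloured points) over the range of the 12 libraries (lines). miR-21 has a mean of 14.53, to the right of the other 18 miRNAs, and its CP_7 mean (13.40) is the lowest of its 4 group means.

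A share of miR-21-5p that moves between 21.4% and 76.9% also moves every other RPM value, because all values of a library add up to the same total. The reads left for all other miRNAs were 39.7% ± 1.2 (SD, n = 3) of a CP_0 library, 76.8% ± 1.6 of a CP_7 library, 51.8% ± 5.0 of a CP_14 library and 24.8% ± 2.0 of a CC library. From day 0 to day 7 this alone multiplied the RPM of an otherwise steady miRNA by 1.94, and from CP_14 to CC by 0.48. The median log2 change of the 245 other miRNAs tested between CP_7 and CP_0 was 1.12 in RPM as deposited, 0.20 per 1000000 reads on miRNAs other than miR-21-5p, and 0.08 after TMM normalization, which scales libraries by the bulk of the miRNAs rather than by their total. The TMM factors of these groups differed by 1.07 on the log2 scale and the shares left for the other miRNAs by 0.95, which is 88.8% of it. In the other comparisons these changes were farther apart. The changes of TMM factor and of the share left were -0.86 and -0.57 for CP_14 against CP_7, 0.16 and 0.38 for CP_14 against CP_0, -0.71 and -1.06 for CC against CP_14 and -0.41 and -0.68 for CC against CP_0. The share left thus moved by less than the TMM factors in the first of these and by more in the rest.

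The direction of the calls moved with the total that was used. Between CP_7 and CP_0, 152 other miRNAs were higher and 19 lower in RPM as deposited, 94 and 63 without miR-21-5p in the total, and 88 and 68 with TMM. Leaving miR-21-5p out changed the sign of 59 of the 245 changes, and of the miRNAs called on both scales 113 kept their direction and 7 were called in opposite directions. Between CC and CP_14, where the share of miR-21-5p was higher in CC, 39 others were higher and 163 lower in RPM, against 137 and 70 without miR-21-5p and 103 and 102 with TMM. Here the median of the 275 others was -0.54 in RPM and 0.43 with miR-21-5p left out, so that leaving it out turned the sign of the median, which was 0.08 with TMM. For CP_14 against CP_7 the median was -0.84 in RPM, -0.30 without miR-21-5p and -0.01 with TMM, and the calls, higher and lower, went from 25 and 138 to 42 and 91 and to 59 and 70. For CP_14 against CP_0 it was 0.16, -0.20 and 0.02, with calls of 76 and 32, 49 and 78, and 62 and 52. For CC against CP_0 it was -0.33, 0.32 and 0.05, with calls of 29 and 112, 109 and 38, and 77 and 67. Among the 283 miRNAs other than miR-21-5p that passed the filter over the 12 libraries, 190 had their highest group mean in CP_7 in RPM, 101 without miR-21-5p in the total and 87 with TMM. The number highest in CC went from 18 to 100 and 92.

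**Figure D5:**
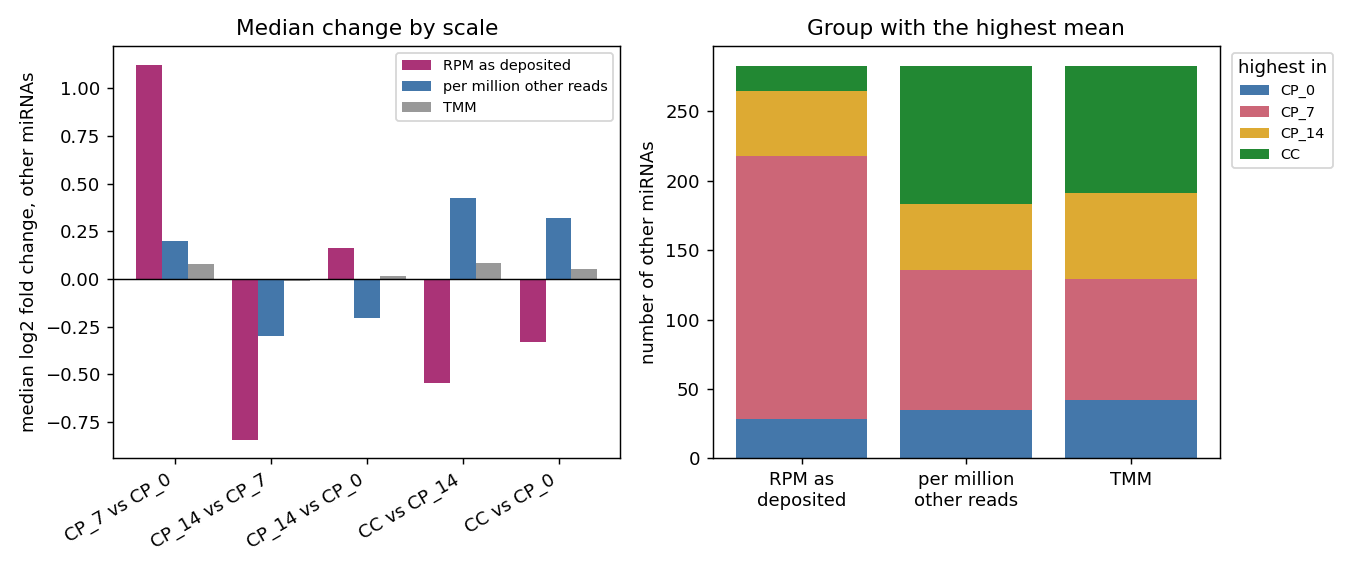
Left, median log2 fold change of the miRNAs other than miR-21-5p in 5 comparisons, in RPM as deposited, per 1000000 reads on miRNAs other than miR-21-5p, and after TMM; right, number of 283 other miRNAs with their highest group mean in each group on the same scales. At day 7 against day 0 the median falls from 1.12 to 0.20 and 0.08, and the number highest in CP_7 falls from 190 to 101 and 87.

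Among the 10 next most abundant miRNAs, leaving miR-21-5p out of the total changed the call between CP_7 and CP_0 for miR-140, the miRNA of cartilage, and for miR-27b. miR-140 stood at 0.05 in RPM (limma adjusted p = 0.70) and at -0.91 with miR-21-5p left out (limma adjusted p = 0.00012). miR-27b stood at 0.28 in RPM (limma adjusted p = 0.14) and at -0.67 without miR-21-5p (limma adjusted p = 0.0038). The rises of let-7i (1.60 in RPM), let-7f (1.61), let-7a-5p (1.99), miR-148a (2.97) and miR-199a-3p (2.19) were all smaller without miR-21-5p, at 0.65, 0.66, 1.03, 2.01 and 1.23, and all were called on both scales. The falls of miR-143 and miR-100, -0.62 and -0.78 in RPM, were -1.58 and -1.74 without it. miR-3604, the remaining one of the 10, had nearly the same reads as miR-199a-3p and the same change (2.19 and 1.23).

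With libraries scaled by TMM, the means of both arms were lowest in CP_7 and highest in CC. Over the 12 libraries miR-21-5p stood at 689046 ± 42836 (SD, n = 3) TMM-normalized RPM in CP_0, at 122433 ± 20032 in CP_7, at 487707 ± 77109 in CP_14 and at 1253620 ± 127533 in CC. On this scale a value may exceed 1000000, because the factors no longer hold the total fixed. The 3p arm stood at 21.8 ± 2.3, 11.4 ± 4.6, 17.4 ± 4.4 and 32.8 ± 3.5 in the same order, and in such bulk samples fewer cells with miR-21 and less of it in each cell cannot be told apart. For every 1000000 reads on the other miRNAs, the 3p arm had 48.2 ± 6.3, 28.0 ± 10.0, 33.3 ± 7.6 and 79.7 ± 8.1 reads, again in that order, and the exact permutation test over the 4 groups gave p = 0.0019.

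The levels of all miRNAs past the filter were tested by limma as log2(TMM-normalized RPM + 1). TMM takes the bulk of the miRNAs as steady, which was not tested, so that rises and falls are relative to that bulk. Between day 0 and day 7 miR-21-5p fell by 2.45 ± 0.13 (SE, limma adjusted p = 4.5e-06) on this log2 scale, in 17th place by size among the 246 miRNAs tested, and miR-21-3p fell by 0.92 ± 0.34 (SE, limma adjusted p = 0.047). In this comparison 63.8% of the miRNAs tested were called, 28% lower and 35.8% higher, so that a call by itself is no distinction of either arm. Without CP_0 replicate 3 and CP_7 replicate 3 the changes were -2.40 (limma adjusted p = 0.00025) and -0.62 (limma adjusted p = 0.083). The call for the 3p arm was also lost without any one of the CP_0 libraries (-0.98 to -0.86) and without miR-21-5p in the total (-0.83, limma adjusted p = 0.065), and in RPM as deposited its sign turned (0.10, limma adjusted p = 0.81).

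Between day 7 and day 14 miR-21-5p rose by 1.92 ± 0.15 (SE, limma adjusted p = 6.2e-05). In this comparison 52.8% of the miRNAs tested were called, 24.4% higher and 28.5% lower. The change of miR-21-3p was 0.56 with a 95% interval of -0.29 to 1.41 (limma adjusted p = 0.22). After 14 days miR-21-5p was still below its level before induction, with a log2 fold change of -0.49 ± 0.11 (SE, limma adjusted p = 0.011), where 46% of the miRNAs tested were called, 24.8% higher and 21.2% lower. Without CP_0 replicate 2 this call was lost (-0.44, limma adjusted p = 0.052). The 3p arm stood at -0.31 over the same time (95% interval -0.79 to 0.16, limma adjusted p = 0.23).

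Against CP_14 both arms were higher in the chondrocytes, miR-21-5p by 1.36 ± 0.13 (SE, limma adjusted p = 8.3e-06) and miR-21-3p by 0.88 ± 0.19 (SE, limma adjusted p = 0.0025), where 74.6% of the miRNAs tested were called, 37.7% higher and 37% lower. Against CP_0 the 5p arm was higher in CC by 0.73 ± 0.09 (SE, limma adjusted p = 0.0007) and the 3p arm by 0.44 ± 0.13 (SE, limma adjusted p = 0.029), where 55.8% were called, 30% higher and 25.8% lower. The call for the 3p arm against CP_0 was lost without CP_0 replicate 2 (0.38), CC replicate 2 (0.43) or CC replicate 3 (0.36). In RPM as deposited the differences of the 3p arm were 0.20 against CP_14 and 0.045 against CP_0, neither of them called, while those of the 5p arm were 0.65 and 0.32, both called. Ordered by level, miR-21-5p ran from CP_7 through CP_14 and CP_0 to CC, and each neighbouring pair in that order was called. The mean depth of the groups ran in that order too, at 780380, 3227040, 3569110 and 9980270 reads. So did the means of the 5p share and of the log2 arm ratio. Depth cannot be told apart from day or cell source in this design, and its part was not tested. For miR-21-3p on the TMM scale the order of the means was the same, but neither CP_7 and CP_14 nor CP_14 and CP_0 differed past the threshold.

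The miRNAs whose pattern was most like that of miR-21-5p were picked by Pearson's r of log2(TMM-normalized RPM + 1) over the 12 libraries, which share their TMM factors and fall into 4 groups. Among 283 miRNAs these were miR-18a (0.98), a member of the cluster of miR-17 to miR-92 that is known for its role in proliferation, miR-140 (0.98), miR-193b (0.98), miR-1271 (0.98) and miR-452 (0.97). miR-21-3p was in 32nd place with 0.87. Like miR-21-5p, miR-18a had its lowest mean in CP_7 (3.90 TMM-normalized RPM) and its highest in CC (41.3). It had only 5, 10 and 3 reads in the CP_7 libraries, so that its values there lie near the floor. The likeness depended on the scale for some of these, since in RPM as deposited r was 0.95 for miR-18a and 0.86 for miR-1271 but 0.06 for miR-140, -0.92 for miR-193b and -0.09 for miR-21-3p. The pattern most opposed to that of miR-21-5p was that of miR-221, with -0.98 on the TMM scale and -0.99 in RPM. Nearest to miR-21-3p were miR-2285f (0.91), miR-18a (0.90), miR-185 (0.87), miR-484 (0.87) and miR-197 (0.87), with miR-21-5p in 7th place. In RPM as deposited r with miR-21-3p was lower for each of these, at 0.58, 0.10, 0.38, 0.40 and 0.19 in the same order.

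Processing of the miR-21 precursor is known to be promoted by SMAD proteins downstream of TGF-beta and BMP, as is that of miR-199a, and 5 names of a list of such miRNAs were present (both arms of miR-199a, miR-105a, miR-215 and miR-421). Between CP_7 and CP_0, 3 of the 5 were tested, of which 2 rose and 1 fell, where 63.8% of all miRNAs tested were called (35.8% higher and 28% lower). The rises, in the direction opposite to miR-21-5p, were those of miR-199a-5p (0.59) and miR-199a-3p (1.11), while miR-215 fell by 2.38 (limma adjusted p = 0.00093). miR-215 had only 3, 2 and 3 reads in CP_7, against 33, 42 and 51 in CP_0 and 36, 37 and 30 in CP_14. It passed the filter through the groups where it is high, so that its calls against CP_7 are not counted as likeness to miR-21-5p. The list median of 0.59 stood beside 0.075 for all miRNAs tested. Between day 7 and day 14 both arms of miR-199a fell (-0.96 and -0.25) and miR-215 rose by 2.09 from its few reads in CP_7, beside 52.8% called over all miRNAs. Between CC and CP_14, with 74.6% called over all, miR-199a-5p was higher (1.69), miR-199a-3p lower (-1.15), and miR-215 and miR-421 were not called (0.28 and 0.40). Between CC and CP_0, with 55.8% called, miR-199a-5p was higher (1.22), as miR-21-5p was. There miR-199a-3p was lower (-0.38) and miR-215 was not called (-0.11). miR-421 was also higher in CC (1.20), with 2, 5 and 2 reads in CP_0 and 28, 23 and 24 in CC. It passed the filter here only through CC, where it is high, so that its call is not counted as likeness to miR-21-5p. Between CP_14 and CP_0, with 46% called, miR-199a-5p was lower (-0.33), as miR-21-5p was, miR-199a-3p was higher (0.91) and miR-215 was not called (-0.26).

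Of 4 miRNAs known to be induced by STAT3 or NF-kB, as miR-21 is by STAT3, 3 were tested between CP_7 and CP_0. miR-181b rose by 2.87 (limma adjusted p = 4.2e-06), miR-155 rose by 2.01 (limma adjusted p = 9.99e-05) and miR-146b stood at -0.62 (limma adjusted p = 0.52), with a list median of 2.01 beside the 0.075 and the 63.8% called of all miRNAs tested. Between day 7 and day 14 miR-181b and miR-155 fell by 1.04 and 1.50, again in the direction opposite to miR-21-5p, and miR-146b stood at -0.65, beside 52.8% called over all. Between CC and CP_14 (74.6% called) miR-146b was higher (0.91, limma adjusted p = 0.012), as miR-21-5p was, miR-181b was lower (-1.36) and miR-155 was not called (-0.26). Between CC and CP_0 (55.8% called) miR-181b was higher (0.37, limma adjusted p = 0.0045), as miR-21-5p was, and miR-155 (0.15) and miR-146b (-0.38) were not called. Between CP_14 and CP_0 (46% called) miR-181b (1.88) and miR-155 (0.55) were higher, opposite to miR-21-5p, and miR-146b was not called (-1.19). miR-146a, with at most 2 reads in any library, was not tested in any comparison.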

How the data were processed

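The authors deposited 1 value per listed miRNA and library under a header that reads tpm. Each deposited value is an RPM, the reads of a miRNA for every 1000000 reads on listed miRNAs, with neither a length nor a composition factor. Per the labels, NEBNext small RNA libraries were made, and the submitters' processing notes name CASAVA, bcl2fastq 1.8.4 and Bowtie. For trimming, counting and the miRNA database, tools and versions were not given in the sources used here. Reads were recovered from the RPM values as multiples of the value of 1 read, and 100% of the values were whole within 0.01 read.

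Levels were tested with limma 3.58.1 (R 4.3.3) as two-sided tests of log2(TMM-normalized RPM + 1) with an intensity trend, with p-values adjusted by Benjamini-Hochberg over all miRNAs passing edgeR's filterByExpr (edgeR 4.0.16, minimum count 10, minimum total 15) and a threshold of 0.05, on the 6 libraries of each comparison. Fold changes on this scale are understated for rare miRNAs. Arm ratios were tested by the same kind of fit on log2(5p RPM + 1) minus log2(3p RPM + 1), over miRNAs with both arms past the filter, with the mean level of the rarer arm as the trend. Single values were tested by exact permutation (scipy 1.17.1), two-sided for pairs of groups. The procedures were tested on simulated data. The chi-square per degree of freedom was at least 4.92 between any 2 libraries of a group. That lowest value was between CP_14 replicates 1 and 2, against 252.1 and 212.6 for the other CP_14 pairs. Every library was counted as a sample of its own, although these values cannot show that the libraries came from separate cultures or animals.

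The members, lists and tests were chosen with earlier results of these data known. The miRNAs named are both arms of miR-21, the 10 next most abundant, the members of the lists, the 5 most like each arm, the 3 nearest in arm ratio and the 3 with the largest change of arm ratio in each comparison, and others were chosen after their values were seen. Alternatives were other scalings, pseudocounts of 0.5 (RPM for levels, reads for arm ratios) and 5 RPM, no filter, one fit of all 12 libraries, a replicate block, edgeR and DESeq2 1.42.0 on the recovered reads, a 2-fold threshold and leaving out each library.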

Additional observations from a re-analysis of the deposited data

How the results depend on the processing

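miR-21-5p kept its direction in all 5 comparisons under every alternative run, and the arm ratio kept its calls of day 7 against day 0 and of day 14 against day 7 under every alternative run. The 3p arm is limited by depth, with 7 to 26 reads in the CP_7 libraries, and its calls moved most. The cause of the changes below was not tested.

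For CP_7 against CP_0 the change of miR-21-3p was 0.099 with library size only, the opposite direction, and lost the call at -0.83 with library size without miR-21-5p, at -0.92 with no filter, with a replicate block or with at least 2-fold, and at -0.62 without the 2 doubted libraries, a setting chosen after seeing the data. For CP_14 against CP_7 it was -0.26 with library size only, the opposite direction, and called with no normalization (1.73). For CP_14 against CP_0 it was called with upper-quartile factors (-0.55). For CC against CP_14 it lost the call with library size only (0.20) and at least 2-fold (0.88), and for CC against CP_0 with library size only (0.045), all 12 libraries in one fit (0.57), a replicate block (0.44), DESeq2 (0.42) and at least 2-fold (0.44). miR-21-5p lost the call in CP_14 against CP_0 with no normalization (-0.48) and at least 2-fold (-0.49) and in CC against CP_0 with at least 2-fold (0.73).

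The median of the other miRNAs moved by more than 1 SD of the single libraries' medians within groups in CP_7 against CP_0 (1.12 with library size only, 0.20 without miR-21-5p, -0.017 with RLE, -0.24 with upper-quartile factors, 0.021 with no filter), in CP_14 against CP_7 (-0.84, -0.30, 0.045, 0.13 and 0.098), in CP_14 against CP_0 (0.16, -0.20 and, with upper-quartile factors, -0.24), in CC against CP_14 (-0.54, 0.43, 0.24 with upper-quartile factors and -0.054 with no filter) and in CC against CP_0 (-0.33, 0.32 and -0.030 with no filter).

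With each library left out in turn, the ranges were -1.31 to -0.64, 0.27 to 0.86, -0.53 to -0.23, 0.76 to 1.06 and 0.36 to 0.52 for miR-21-3p in the order of comparisons above, -0.65 to -0.44 for miR-21-5p in CP_14 against CP_0, -0.36 to 0.088 and 0.19 to 0.63 for the arm ratio in CP_14 against CP_0 and CC against CP_14, and -0.14 to 0.13, -0.071 to 0.098, -0.031 to 0.035, -0.044 to 0.10 and 0.019 to 0.048 for the median of the others.

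The replicate numbers are not stated to mark a shared animal or batch, and same-numbered libraries correlated by -0.35 to 0.11 in their deviations from the group means, with the best match at the own number in 2 of 15 cases (3 libraries in each of 5 comparisons, so that a library counts more than once). With the replicate block the number of miRNAs called went from 157 to 151, from 130 to 100, from 115 to 105, from 206 to 189 and from 145 to 118. On the recovered reads, edgeR's quasi-likelihood test called 158, 135, 115, 202 and 134 miRNAs against 157, 130, 115, 206 and 145 by limma, in the order CP_7 against CP_0, CP_14 against CP_7, CP_14 against CP_0, CC against CP_14 and CC against CP_0, and both arms of miR-21 kept their direction and side of the threshold under edgeR in each.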
